A study of Mus musculus with 4 samples.

Results

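The genes described are 8 members of the caspase system of apoptosis in 32Dcl3-Abl1ko cells: the caspase genes Casp2, Casp6, Casp8 and Casp9, the activators Apaf1 and Diablo, and the inhibitors Cflar and Xiap. They were taken by gene symbol from a table of 23756 genes, each symbol matched 1 row, and all 8 were among the 16535 genes that passed the expression filter. 32Dcl3 is a murine bone marrow line whose growth normally needs interleukin-3 (IL-3). Abl1, the gene of the ABL1 tyrosine kinase, had been edited with CRISPR/Cas9 by a lentiviral vector that carries the guide and a puromycin marker, so every library, the controls included, carries the labelled genotype Abl1 KO. The comparison was between 2 libraries of cells grown with IL-3 (Abl1ko/IL3+) and 2 of cells growing without it (Abl1ko/IL3-), with ribosomal RNA removed before sequencing. The methods describe single knockout clones and growth factor-independent populations that arose from 2 guides during gradual withdrawal. The labels do not say from which clone or guide a library came, so IL-3 and differences between populations cannot be told apart. An Abl1 wild-type group was not analysed here.

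Caspases are cysteine proteases that are made as inactive precursors. In the mitochondrial route, cytochrome c released from mitochondria binds APAF1, which assembles into the apoptosome and activates the initiator caspase-9. In the death receptor route caspase-8 is activated at the receptor, where its relative cFLIP, the product of Cflar, takes part and can block it. Both routes lead to executioner caspases, among them caspase-6. XIAP, an inhibitor of apoptosis (IAP) protein, restrains caspase-9 and some of the executioners, and DIABLO, once released from mitochondria, binds the IAPs and lifts that block. Withdrawal of IL-3 is a classic trigger of the mitochondrial route in 32D cells. The measurements below are RNA levels and do not show whether any of these proteins was made or cleaved.

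The short coding stretches below are shown because they hold the feature that separates the proteases from their relative. The capitals mark the codon of the active-site cysteine in each caspase, and in Cflar the codon at the same distance from the aligned glutamine as that cysteine in Casp8. Sequences are 5′ to 3′ on the coding strand from GENCODE M21 transcripts (GRCm38).
Casp9: ttcatccaggccTGCggtggtgagcagaaa
Casp2: ttcatccaagcaTGTcgtggagatgagaca
Casp8: ttcattcaggctTGCcaaggaagtaacttc
Casp6: atcatccaggccTGTcggggtagccagcat
Cflar: tttattcagaacTATgagtcgttaggtagc
The 4 caspases read TGC or TGT at that position, both cysteine codons, while Cflar reads TAT, a tyrosine codon. The stretch of Casp8 lies in exon 8 of 9 at chr1:58844607-58844636 and that of Cflar in exon 9 of 10 at chr1:58752611-58752640, both on the plus strand. The stretches of Casp9 (exons 6 and 7 of 9), Casp2 (exons 8 and 9 of 11) and Casp6 (exons 5 and 6 of 7) each cross a junction. Over 433 aligned positions the translated Casp8 and Cflar coding sequences were identical at 135, or 31.2%, and their genes are neighbours on chromosome 1, 36490 bases apart.

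Libraries held between 48953174 and 60382588 counts. Abl1 itself had 1322 and 2222 counts in the libraries with IL-3 and 1544 and 2256 in those without, a log2 difference of 0.21 (SE 0.45, adjusted p = 0.98 in edgeR), and without a wild-type group its RNA level cannot check the knockout. The labels call the cells pre-B, but 6 of 11 B-lineage markers were in the table, and these summed to between 18.4 and 26.1 CPM (counts per 1000000 counts of the normalized library) in every library. Cd79b gave 11.2 to 16.2 CPM of that sum and Cd79a 11.7 CPM in Abl1ko/IL3+ replicate 2, while Rag1 had at most 4 counts and Cd22 at most 7. The 12 myeloid markers summed to 5033 and 3235 CPM with IL-3 and to 2526 and 2294 CPM without. Mpo alone gave 1879 and 1477 CPM with IL-3 and 908 and 499 CPM without. Of the 12, 2 (Mpo and Spi1) were lower in both libraries without IL-3 than in both with it, against 17.9% of all genes. None was higher in both. Itgam, Fcgr3 and Csf3r had log2 differences above 0 (0.28, 0.35 and 1.17), and the other myeloid markers below 0. The Csf3r value rested on 29 and 0 counts with IL-3 and 12 and 45 without (SE 1.77). The 9 markers of maturing granulocytes summed to 806 and 296 CPM with IL-3 and to 946 and 5366 CPM without. Of the 8 of these that were tested, 5 were higher in both libraries without IL-3 than in both with it (S100a8, S100a9, Ltf, Camp and Ly6g, against 19.4% of all genes), and Ngp, Lcn2 and Mmp9 overlapped. The log2 differences of these 5 ran from 4.23 (Ly6g) to 6.98 (S100a8), and those of Ngp, Lcn2 and Mmp9 were 2.31, 1.87 and -0.33. Camp had only 4 and 0 counts with IL-3 and 21 and 193 without. None passed the adjusted threshold in edgeR (adjusted p from 0.532 to 0.98), and neither did any gene tested. Ngp alone made up 4003 of the 5366 CPM.

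No member passed an adjusted p of 0.05 in edgeR's quasi-likelihood test, and neither did any gene tested (0.0% of 16535). The member that stood furthest from the rest was Casp9, which was lower in both libraries without IL-3 than in both libraries with it. It was the 1 member of 8 with an unadjusted p under 0.05 in edgeR and a lower level, against 3.36% of all genes, and none had such a p with a higher level (2.56% of all genes). It was also the 1 member of 8 whose groups did not overlap on the lower side, against 17.9% of all genes, and no member was above both controls in both libraries without IL-3 (19.4% of all genes). By this second measure the share of members was not above the background. The median log2 difference, without against with IL-3, was -0.23 over the members and -0.03 over all genes tested. Of the members, 6 were below 0 and 2 above, and of all genes tested 8589 were below 0 and 7946 above.

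Casp9 encodes the initiator caspase of the mitochondrial route. The gene (ENSMUSG00000028914), which the files place on the plus strand of chromosome 4 from 141793612 to 141815976, had 1145 and 300 counts in Abl1ko/IL3+ replicates 1 and 2 and 60 and 168 counts in Abl1ko/IL3- replicates 1 and 2. After TMM normalization these were 17.8 and 5.52 CPM with IL-3 and 1.25 and 2.89 CPM without. The lowest library with IL-3 was still 1.91-fold above the highest without, while the replicates differed 3.22-fold with IL-3 and 2.31-fold without. The log2 difference was -2.49 (SE 0.81, n = 2 per group), a level 5.60-fold higher with IL-3 (unadjusted p = 0.0282, adjusted p = 0.797 in edgeR). The exact Poisson 95% intervals were 267 to 336 for the 300 counts and 144 to 195 for the 168 counts, which cover counting error only. Without Abl1ko/IL3+ replicate 1, the highest library, the log2 difference was -1.39, and with any other library left out it lay between -3.21 and -2.01. DESeq2 gave Casp9 an adjusted p of 0.0914 (unadjusted p = 0.00195) and called 271 genes, or 1.64% of those tested, and none of the members. In bulk RNA, a change in the share of cells and a change in RNA per cell cannot be told apart. Exons of Casp9 share 94 bases with Cela2a and Ctrc on the opposite strand, genes not analysed here. The markers of maturing granulocytes were higher in sum in both libraries without IL-3, and their part in the Casp9 difference was not tested. None of these markers passed the adjusted threshold in edgeR, where no gene tested did.

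**Figure D1:**
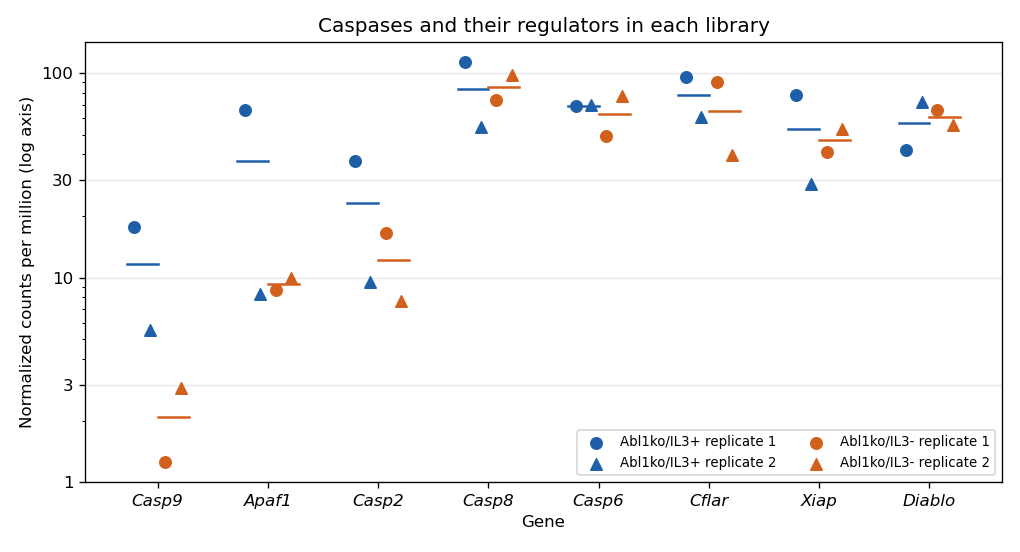
TMM-normalized CPM (log axis) of the 8 genes in each library, with IL-3 in blue and without in orange, circles for replicate 1, triangles for replicate 2, and bars at the mean of each pair. Casp9 is the only gene whose orange points, 1.25 and 2.89 CPM, both lie below its blue points, 17.8 and 5.52 CPM, and the Apaf1 blue circle at 66.1 CPM stands far above the other 3 points of that gene.

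Apaf1 encodes the scaffold on which caspase-9 is activated. Its CPM was 66.1 and 8.28 with IL-3 and 8.65 and 9.94 without. A single library was high, Abl1ko/IL3+ replicate 1, and the other 3 lay within a narrow band, so the groups overlapped. The replicates with IL-3 were 7.98-fold apart and those without 1.15-fold apart. The log2 difference of -2.00 (SE 0.98, adjusted p = 0.86 in edgeR) became 0.18 without that library and -2.83 without Abl1ko/IL3+ replicate 2. The Apaf1 difference therefore rested on 1 library. The ratio of Apaf1 to Casp9 within a library, taken on the deposited FPKM values, which scale counts by gene length and depth, was 2.14 and 0.863 with IL-3 and 3.98 and 1.996 without. Its log2 difference was 1.05, and the 2 groups overlapped (two-sided exact permutation p = 0.667, with 0.333 the smallest that 2 against 2 libraries allow).

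Casp2 encodes an initiator-like caspase that responds to DNA damage and extra centrosomes through PIDD1. Its CPM was 37.0 and 9.49 with IL-3 and 16.6 and 7.67 without. Replicate 1 was the higher library in both groups, and the groups overlapped. The log2 difference was -0.94 (SE 0.79, adjusted p = 0.923 in edgeR), which became 0.37 without Abl1ko/IL3+ replicate 1, -1.61 without Abl1ko/IL3+ replicate 2 and -1.60 without Abl1ko/IL3- replicate 1.

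The promoters of these 3 genes are shown because they carry the largest log2 differences of the set. Each is the 250 bases before the RefSeq start in GRCm38.p6, 5′ to 3′ on the strand of the gene, with capitals on each match, on either strand, of the GC box GGGCGG or of an E2F motif (TTTCCCGC, TTTGGCGC, TTTGCCGC or TTTCGCGC). Matches that overlap are joined into a single run.
Casp9 (chr4:141793362-141793611, plus strand): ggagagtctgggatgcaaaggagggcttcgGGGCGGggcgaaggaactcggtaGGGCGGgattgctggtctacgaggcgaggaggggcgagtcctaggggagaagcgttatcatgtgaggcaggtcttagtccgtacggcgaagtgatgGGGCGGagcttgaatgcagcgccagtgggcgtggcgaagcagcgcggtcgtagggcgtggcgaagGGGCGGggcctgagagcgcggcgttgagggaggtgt
Apaf1 (chr10:91082744-91082993, minus strand): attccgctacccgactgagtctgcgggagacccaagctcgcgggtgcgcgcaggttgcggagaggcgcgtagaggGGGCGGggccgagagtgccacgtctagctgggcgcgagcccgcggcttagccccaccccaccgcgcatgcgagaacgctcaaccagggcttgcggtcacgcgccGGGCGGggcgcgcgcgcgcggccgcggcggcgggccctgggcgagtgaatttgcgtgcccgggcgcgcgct
Casp2 (chr6:42264735-42264984, plus strand): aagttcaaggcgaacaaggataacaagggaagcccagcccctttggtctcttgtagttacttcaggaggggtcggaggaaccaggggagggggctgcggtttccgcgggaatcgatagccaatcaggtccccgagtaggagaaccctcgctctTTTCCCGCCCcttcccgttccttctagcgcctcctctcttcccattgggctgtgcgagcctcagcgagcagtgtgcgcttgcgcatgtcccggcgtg
The Casp9 window held 4 GC boxes, the Apaf1 window 2 and the Casp2 window 1, which overlaps an E2F match. Of 32851 such windows in RefSeq, 32.7% held a GC box and 1.86% an E2F motif. The windows of Casp8 and Cflar held no match to either motif, and those of Casp6 and Diablo held 1 GC box each, as did 2 of the 3 windows listed for Xiap. The Casp8 and Xiap windows lie inside the deposited gene spans, which start at 58795374 for Casp8 and 42059679 for Xiap. The bases before those starts were not examined. The Apaf1 window, on the minus strand, runs partly into the deposited span of its gene, which ends at 91082770. No member had a match to TTCNNNGAA, the palindrome STAT factors can bind, which 7.02% of windows held, nor to the cyclic AMP response element TGACGTCA (1.55%). A forkhead motif (TGTTTAC or TGTTTGC, 7.29% of windows) appeared in the remaining Xiap window and in no other. These are matches of letters in a fixed window, not sites shown to be bound.

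Casp8 encodes the initiator of the death receptor route. Its CPM was 112.9 and 54.5 with IL-3 and 73.8 and 97.7 without. The libraries without IL-3 lay between the 2 libraries with it. The log2 difference was 0.04 (SE 0.46, adjusted p = 0.999 in edgeR), and it lay between -0.40 and 0.67 with each library left out. Casp6 (chromosome 3, 129901425 to 129914103) encodes an executioner caspase that cleaves lamin A. Its CPM was 69.3 and 69.6 with IL-3 and 49.4 and 77.1 without. The controls were within 1.005-fold of each other and between the libraries without IL-3, and the log2 difference was -0.13 (SE 0.36, adjusted p = 0.984 in edgeR).

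Cflar encodes cFLIP, the relative of caspase-8 that lacks the cysteine. Its CPM was 96.2 and 61.0 with IL-3 and 90.8 and 39.6 without. Replicate 1 was again the higher in each group, the groups overlapped, and the log2 difference was -0.27 (SE 0.52, adjusted p = 0.976 in edgeR). The ratio of Cflar to Casp8 in FPKM was 0.195 and 0.256 with IL-3 and 0.281 and 0.0925 without. The library with the lowest ratio, Abl1ko/IL3- replicate 2, had the second-highest Casp8 and the lowest Cflar level, and its neighbour in the group had the highest ratio of the 4. The log2 difference of the ratio was -0.47 (two-sided exact permutation p = 1) and 0.33 without that library.

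Xiap (chromosome X, 42059679 to 42109656) encodes the IAP that directly inhibits caspase-9 and some executioners. Its CPM was 78.1 and 28.8 with IL-3 and 41.2 and 53.1 without. As with Casp8, the libraries with IL-3 were the extremes, and the log2 difference was -0.18 (SE 0.55, adjusted p = 0.987 in edgeR), or 0.73 without Abl1ko/IL3+ replicate 1. Diablo encodes the mitochondrial protein whose exposed end binds IAPs. The codons of that end are in capitals in this stretch over exons 2 and 3 of 6, on the minus strand of chromosome 5, shown because it is the part of the protein that meets XIAP.
Diablo: acactgtgtGCGGTTCCTATTgctcagaaa
Diablo CPM was 41.9 and 72.2 with IL-3 and 66.2 and 55.5 without, so it was the 1 member whose lowest library was Abl1ko/IL3+ replicate 1. The log2 difference was 0.09 (SE 0.39, adjusted p = 0.993 in edgeR). Exons of Diablo share 1326 bases with B3gnt4 on the opposite strand and 1193 with Gm49027 on the same strand, and whether reads were counted by strand is not given in the sources used here. Both neighbours had at most 50 counts in any library. The Xiap to Diablo ratio in FPKM was 1.21 and 0.259 with IL-3 and 0.405 and 0.624 without, a log2 difference of -0.16 (two-sided exact permutation p = 1). Both values without IL-3 lay between the 2 values with it.

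Of the 8 members, 6 were highest in Abl1ko/IL3+ replicate 1, the library in which 31.8% of all genes tested were highest. That count was added after the values were seen. Casp6 was highest in Abl1ko/IL3- replicate 2 and Diablo in Abl1ko/IL3+ replicate 2. With each library left out in turn, the direction of 5 members turned without Abl1ko/IL3+ replicate 1 (Casp2, Apaf1, Diablo, Cflar and Xiap). Casp9 was below 0 in all 12 alternative fits, at log2 differences between -3.21 and -1.06, the smallest of them on the log2(FPKM + 1) scale, which understates changes of low genes. Because its groups did not overlap, fits of the same libraries had little room to turn its direction. These signs are therefore no further support.

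**Figure D2:**
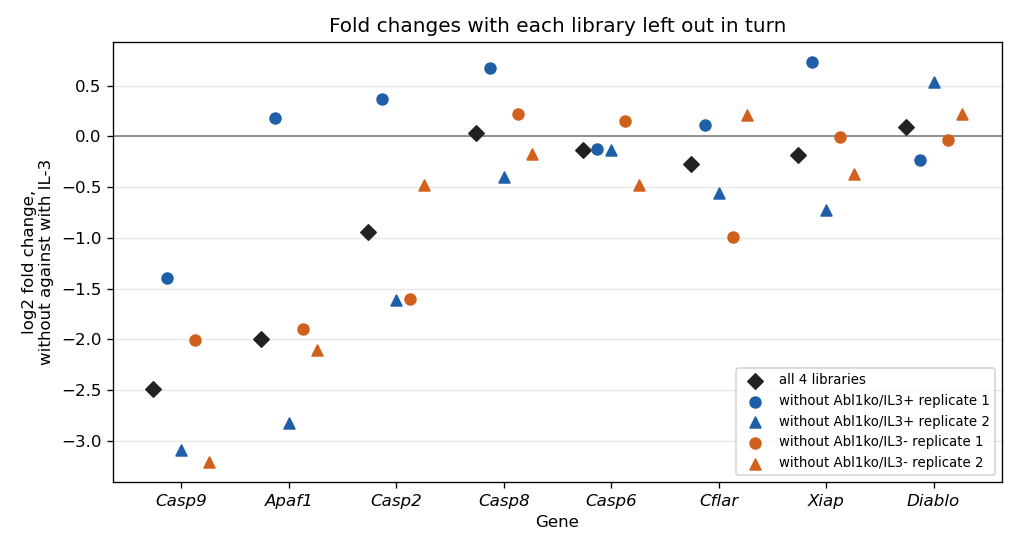
Log2 difference between growth without IL-3 and with it for each gene, in the fit of all 4 libraries (black diamonds) and with each library left out (blue, a library with IL-3 left out; orange, one without; circles, replicate 1; triangles, replicate 2). Casp9 lies below 0 in each fit, from -3.21 to -1.39, which follows from its groups not overlapping, while Apaf1 moves from -2.83 to 0.18.

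On the scale of FPKM, which accounts for length, Casp8 was the most abundant member in both groups, at a mean of 26.3 ± 15.9 with IL-3 and 26.5 ± 6.68 without (SD, n = 2). Casp6 followed at 10.95 with IL-3 and 10.2 without, and Diablo at 7.96 and 8.74. With IL-3, Cflar (5.57), Xiap (5.18), Apaf1 (3.88), Casp2 (3.05) and Casp9 (2.06) came next, and from Diablo down the ranges of neighbours in this order overlapped. Without IL-3 the order was Cflar (4.503), Xiap (4.45), Casp2 (1.5005), Apaf1 (0.914) and Casp9 (0.356), where Casp6 and Diablo, Cflar and Xiap, and Casp2 and Apaf1 overlapped. Casp9 was the lowest member by mean FPKM in both groups. Among the 4 caspases it made up 5.68% and 3.14% of their summed FPKM with IL-3 and 0.649% and 1.12% without. Casp8 made up between 55.9% and 69.1% in every library.

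Ratios within a library do not depend on the scaling between libraries. Those of Casp9, computed after its values were seen, were lower in both libraries without IL-3 for each of 3 partners. The 3 ratios share the Casp9 level, so they largely restate its difference and are not separate support. Each had a two-sided exact permutation p of 0.333, which groups of 2 that do not overlap always give. Casp9 to Xiap was 0.414 and 0.349 with IL-3 and 0.0552 and 0.0979 without. Casp9 to Casp8 was 0.0875 and 0.0562 with IL-3 and 0.0094 and 0.0163 without. Casp9 to Casp2 was 0.651 and 0.792 with IL-3 and 0.102 and 0.510 without. Within each group, Xiap and Casp8 were higher in the same library as Casp9.

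**Figure D3:**
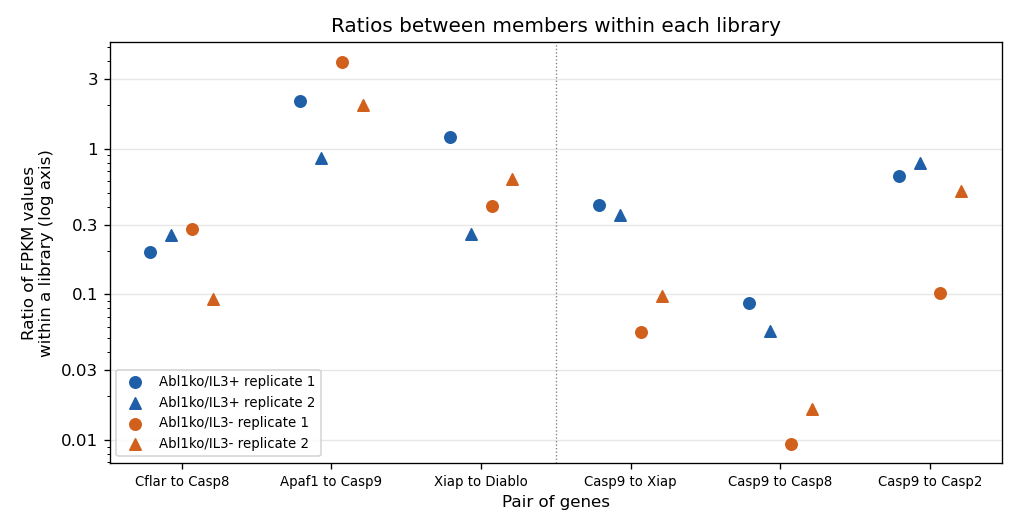
Ratios of FPKM values within each library (log axis), with IL-3 in blue and without in orange, circles for replicate 1 and triangles for replicate 2, and to the right of the dotted line the 3 ratios of Casp9 that were added after its values were seen. The groups overlap for the 3 ratios on the left, and on the right the Casp9 to Xiap ratio is 0.414 and 0.349 with IL-3 against 0.0552 and 0.0979 without.

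The other genes of the pathway considered here came from a list of 40 names, of which 36 were in the table and 34 were tested. Among these 34, none passed the adjusted threshold or an unadjusted p of 0.05 in edgeR, none passed either in DESeq2, 14 had a log2 difference below 0 and 20 above, and the median was 0.06. Groups did not overlap for 6 of the 34 on the lower side and 8 on the higher, shares close to those over all genes (17.9% and 19.4%). Dffa, whose product holds the nuclease of apoptotic DNA cleavage inactive until a caspase cuts it, was at 28.9 and 23.8 CPM with IL-3 and 11.8 and 16.4 without. Both libraries without IL-3 lay below both with it, and the log2 difference was -0.90 (SE 0.39, unadjusted p = 0.0677, adjusted p = 0.854 in edgeR).

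Of the 8 other IAP-family genes tested, 2 were below 0 and 6 above. Birc2, the gene of cIAP1, had 49.9 and 33.3 CPM with IL-3 and 56.5 and 61.4 without, a log2 difference of 0.50 (adjusted p = 0.901 in edgeR). It lay between 0.24 and 0.84 with each library left out. Birc3, for cIAP2, differed by 0.30 on the log2 scale (-0.25 without Abl1ko/IL3+ replicate 2 and 1.21 without replicate 1) and Birc5, for survivin, a protein of dividing cells, by 0.43 (-0.28 without Abl1ko/IL3+ replicate 1 and 1.98 without replicate 2). Survivin RNA was low in 1 library, with 47.0 CPM in Abl1ko/IL3+ replicate 1 against 227, 229 and 141 CPM in Abl1ko/IL3+ replicate 2 and Abl1ko/IL3- replicates 1 and 2. Naip2 and Naip5, sensors of bacterial proteins in inflammasomes, had log2 differences of -0.91 and 0.66, which were -0.32 and 1.72 without Abl1ko/IL3+ replicate 1 and -1.33 and 0.07 without Abl1ko/IL3+ replicate 2. Reads of these near-identical paralogs can be split between them by the counting.

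Of the other lists, 3 of 5 mitochondrial release genes, 5 of 10 death receptor and adaptor genes and 3 of 9 substrate and nuclease genes had a log2 difference below 0. Cycs (cytochrome c) differed by 0.22, Htra2 (a mitochondrial protease that binds IAPs) by 0.47, Bid (which caspase-8 cleaves) by 0.07 and Fadd (the adaptor of caspase-8) by -0.33 on the log2 scale, each with overlapping groups. Each of these 4 directions turned with a library left out: without Abl1ko/IL3+ replicate 1 the values were -0.26 for Cycs, -0.08 for Htra2 and -0.07 for Bid, and without Abl1ko/IL3+ replicate 2 that of Fadd was 0.22. Without replicate 2, Cycs was at 0.99 and Htra2 at 1.40. The remaining differences named by size in the list were Sept4, whose ARTS isoform binds XIAP, at -2.25, on 34 and 16 counts with IL-3 and 4 and 5 without, Tnf at 0.997 and Pidd1, the partner of caspase-2, at 0.99. Pidd1 had 22.7 and 32.0 CPM with IL-3 and 69.5 and 38.9 without. None of these 3 had an unadjusted p under 0.05 in edgeR.

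**Figure D4:**
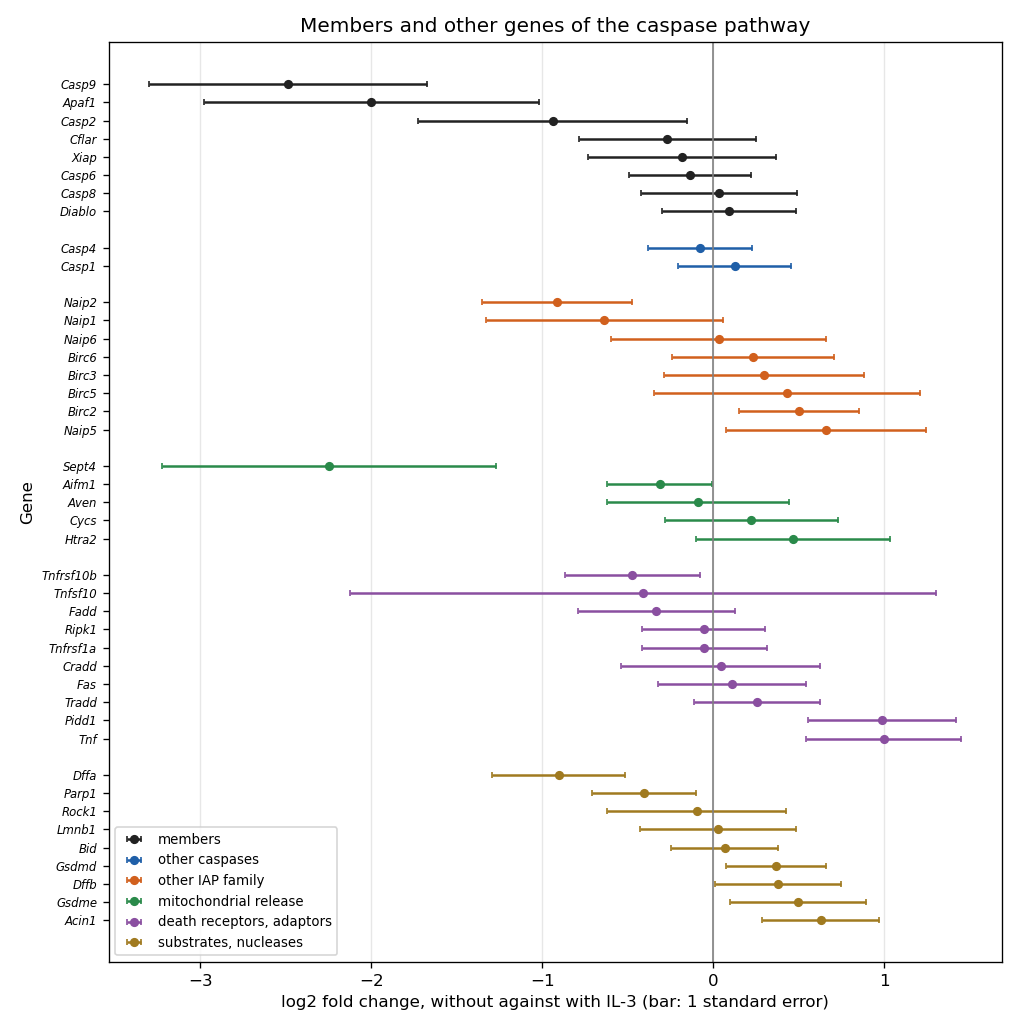
Log2 difference between growth without IL-3 and with it from edgeR (horizontal axis, bars of 1 standard error) for the 8 members in black and the 34 other pathway genes tested, colored by group. Casp9 (-2.49) and Sept4 (-2.25) lie furthest to the left and Tnf (0.997) furthest to the right. The widest errors are those of Tnfsf10 (1.71), Apaf1 (0.98), Sept4 (0.97) and Casp9 (0.81).

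The genes whose pattern over the 4 libraries was closest to each member were found among the other members and the pathway list, 41 candidates for each, by the root mean square difference of mean-centred log2 CPM. A distance is read against the root mean square spread of the member itself, since it grows with that spread. Xiap was 0.06 from Rock1 (own spread 0.53), Casp8 0.10 from Birc6 (0.40) and Diablo 0.13 from Lmnb1 (0.30). Casp9 was 0.58 from Sept4 (1.38), Casp2 0.44 from Naip1 (0.88) and Apaf1 0.66 from Casp2 (1.25). For Cflar, 0.41 from Aifm1 (0.51), and Casp6, 0.22 from Tnfrsf1a (0.24), the nearest gene was almost as far as the member's own spread. With 4 libraries that share their depth and normalization, these distances are a description.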

How the data were processed

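Per the labels and the study's methods, RNA depleted of ribosomal RNA was sequenced on an Illumina HiSeq instrument. The authors used Rsubread for alignment to GRCm38 and featureCounts for gene-level counts, whose versions, strand and read-pair settings are not given in the sources used here; the submitters' processing notes name STAR, Cuffdiff and mm10. The authors deposited raw counts and FPKM values. For 99% of the 12946 genes with 20 counts or more in every library, the counts per FPKM relative to library totals differed between libraries by at most 1.05-fold, so FPKM are the same counts scaled. The counts-only table held the same values in every cell.

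Groups follow the labels, 2 libraries each. Counts were tested with edgeR 4.0.16 in R 4.3.3 (filterByExpr, TMM, quasi-likelihood F test, two-sided, Benjamini-Hochberg over 16535 genes, threshold 0.05), after the steps were tested on simulated data. Ratios of FPKM were tested by exact permutation over libraries. Alternatives were DESeq2 1.42.0, library size only, no filter, 10 counts in every library, a replicate block, limma 3.58.1 on log2(FPKM + 1) and log2(FPKM + 0.1), ratios from counts + 0.5 or FPKM + 1, and each library left out; a crossed pairing was added after seeing the data. With a library left out, the lone sample of a group is assumed to vary like the other group.

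The members and gene lists were chosen with earlier results of these data known. Named were all members, Fadd, Cycs, Bid, Birc2, Birc3, Birc5 and Htra2, list genes with an unadjusted p under 0.05, the 3 largest rises and falls, and each member's nearest gene. The motifs were also chosen after the data were seen. Some genes of the lists are not reported here and stand in no list count. Of the 40 list names, Septin4 is the same gene as Sept4, and Casp14, Birc7 and Endog were not analysed here. Total counts of 48953174 to 60382588 put 3 counts, the floor, at 0.0497 to 0.0613 CPM. Intervals cover counting error only. The p-values rest on the spread between these libraries alone, which edgeR estimates with help from all genes tested.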

Additional observations from a re-analysis of the deposited data

How the results depend on the processing

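No member passed an adjusted p of 0.05 in any alternative, and of 96 alternative fold changes of members, 10 turned direction, all of them with a library left out. The ranges over the 4 such fits were -3.21 to -1.39 for Casp9, -2.83 to 0.18 for Apaf1, -1.61 to 0.37 for Casp2, -0.40 to 0.67 for Casp8, -0.48 to 0.15 for Casp6, -0.23 to 0.54 for Diablo, -0.99 to 0.21 for Cflar and -0.73 to 0.73 for Xiap, on the log2 scale. The log2 differences of the ratios ranged from -1.27 to 0.33 for Cflar to Casp8, and those of Xiap to Diablo from -1.27 to 0.96, while that of Apaf1 to Casp9 stayed above 0 (0.39 to 1.71) and was 0.10 from FPKM + 1. The median over the members ranged from -0.64 to 0.15, the latter without Abl1ko/IL3+ replicate 1. The number of members with an unadjusted p under 0.05 was 2 with DESeq2 (Casp9 and Apaf1), 0 with limma on either FPKM scale and between 0 and 3 with a library left out. For the other pathway genes this number was 1 with the crossed pairing and between 0 and 6 with a library left out, against 0. Of all 16535 genes tested, 555 had such a p with a lower level and 423 with a higher level in the main fit. The number was 1369 with DESeq2, 1053 and 1052 with limma on FPKM + 1 and FPKM + 0.1, and 1136 with the crossed pairing. With a library left out the number over all genes moved as well. The moves in these counts alone therefore do not set the members or the other pathway genes apart. The causes of the moves were not tested. The labels do not say that replicate numbers mark a shared culture, so the numbers were used to pair samples only as an alternative. Deviations of same-numbered libraries correlated at -0.19 across genes, a value that cannot show whether they were paired. With the replicate block the log2 difference of Casp9 was -2.37 (adjusted p = 1 in edgeR), and the number of genes with an unadjusted p under 0.05 was 548, against 1136 with the crossed pairing. The lowest member count in any library was 60, and replicates of a group differed by up to 7.98-fold (Apaf1).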
